A study of Mus musculus with 7 samples.

Results

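The genes described here mark the stem cells and the crypt base of the intestinal epithelium, and they were measured in the terminal ileum of mice raised with or without a low dose of penicillin. The list held 10 genes: Lgr5, Olfm4, Ascl2, Smoc2, Axin2, Sox9, Ephb2, Ephb3, Rnf43 and Msi1. They were found through the platform annotation, by keeping the probe sets that name a listed gene and no other. That gave 18 probe sets for 9 genes, out of 45101 probe sets on the array. Ephb2 had no probe set of this kind in the annotation used and is not analysed here. The penicillin group was 4 male C57BL6J mice given penicillin in a dose of 6.7 mg/L from birth. The control group was 3 male C57BL6J mice that received no antibiotic. Mice of both groups were weaned onto chow at 4 weeks, were fed from 6 weeks on a diet in which fat gave 45% of the energy, and were sampled at 8 weeks of age. Litter and cage are not given in the labels, so a litter or cage difference cannot be told apart from penicillin. The tissue label reads terminal ileum although the text on animal growth mentions livers. Fabp6, which binds bile acids inside enterocytes of the ileum, stood at log2 14.50 ± 0.115 (SD, n = 4) in penicillin mice and 14.41 ± 0.109 (SD, n = 3) in control mice.

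Crypts are the pockets of the epithelium where new cells are made, and the slender stem cells at their base lie between Paneth cells. Wnt ligands keep these cells dividing through beta-catenin: Lgr5 is a receptor for the R-spondins that raise Wnt signalling, Rnf43 is a ubiquitin ligase that removes Wnt receptors from the surface, and Axin2 is part of the complex that destroys beta-catenin. Ascl2 is a transcription factor switched on by Wnt that sets the stem cell programme, Sox9 is a transcription factor of the lower crypt and of Paneth cells, and Ephb2 and Ephb3 are receptors that sort cells along the crypt. Olfm4 is a secreted glycoprotein and Smoc2 a matrix-associated protein of the same stem cells. Msi1 is an RNA-binding protein of stem and progenitor cells in gut and brain.

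None of the 9 measured genes passed the test for a difference between the groups. Over the 13644 genes tested, limma called 13, or 0.0953% (Benjamini-Hochberg adjusted p under 0.05), 12 lower in penicillin mice (0.088%) and 1 higher (0.00733%), and 0 of the 9 crypt base and stem genes were among them. Of the 9 genes 5 had higher and 4 had lower means in penicillin mice. Their log2 differences, penicillin minus control, lay between -0.18 for Axin2 and 0.28 for Ascl2, with a median of 0.024 beside -0.014 over all genes tested. The median size of the difference was 0.094 in the 9 genes and 0.082 over all genes tested. The 95% intervals of the 9 genes reached from -0.41 to 0.47, so a fall of more than 1.33-fold or a rise of more than 1.39-fold lay outside the interval of each. At an unadjusted p under 0.05, Ascl2 and Msi1 passed, both higher, where 10.7% of all genes tested passed in either direction, 4.37% higher and 6.35% lower. The groups did not overlap in these same 2 genes, where they did not overlap in 10.3% of all genes tested, 4.29% higher and 6.05% lower. A count of 2 among 9 genes is too small to set the list apart from these backgrounds. In whole tissue, fewer cells of a type and less RNA per cell cannot be told apart.

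**Figure D1:**
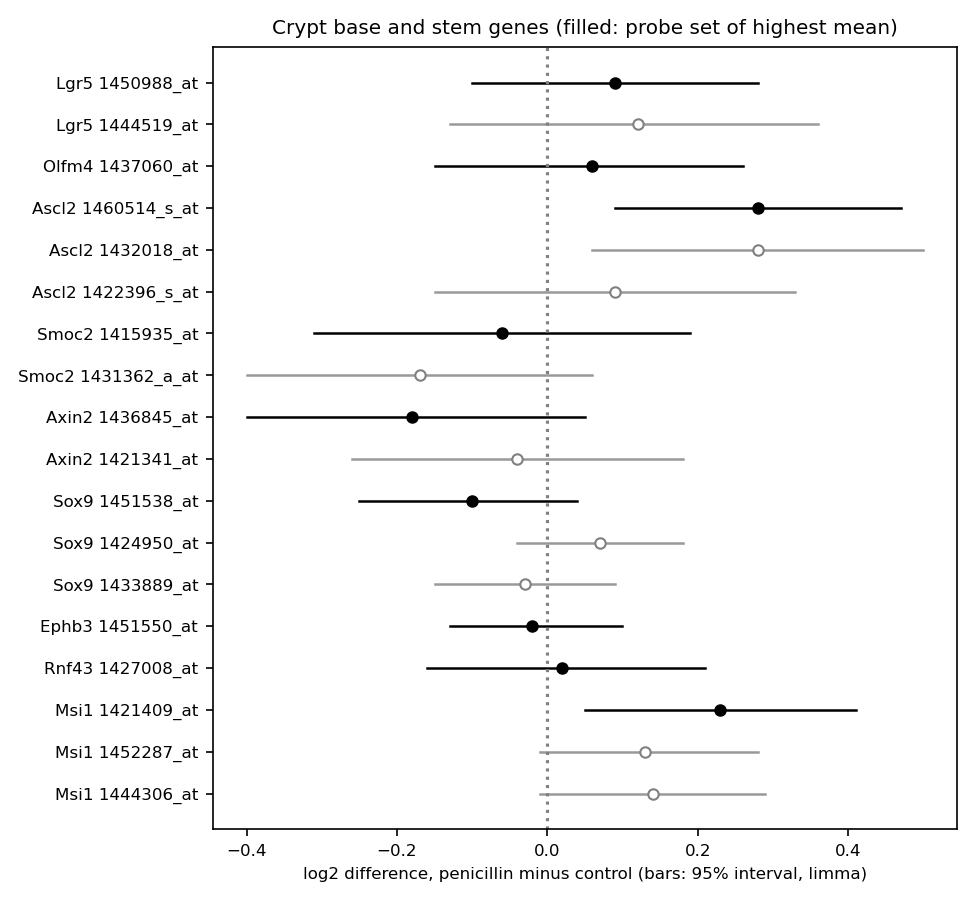
Log2 difference, penicillin minus control, with its 95% interval from limma for each of the 18 probe sets, from a fit over every probe set. Filled points are the probe set of highest mean for each gene. The intervals of 15 of the 18 probe sets cross 0, and the exceptions are 2 probe sets of Ascl2 and 1 of Msi1.

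The promoters of Ascl2 and Axin2 are shown because these genes stand at the 2 ends of the list's differences, and that of Olfm4 because it is known as a target of Notch as well as a stem cell marker. Each sequence is the 250 bases before the start of the gene on its own strand, from RefSeq on GRCm38.p6, and capitals mark motif matches on either strand. The CCAAT box was searched by the letters in its name. The GC box was searched as GGGCGG. The TATA box was searched as TATAA. The site of RBPJ, the DNA-binding partner of Notch, was searched as TGGGAA.
Ascl2, GRCm38.p6 chr7:142969265-142969514, minus strand: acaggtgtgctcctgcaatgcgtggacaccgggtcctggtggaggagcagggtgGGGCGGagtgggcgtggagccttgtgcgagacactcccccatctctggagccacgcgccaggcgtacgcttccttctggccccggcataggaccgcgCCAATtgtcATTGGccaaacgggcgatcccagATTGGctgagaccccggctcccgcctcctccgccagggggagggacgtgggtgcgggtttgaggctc
Axin2, GRCm38.p6 chr11:108920099-108920348, plus strand: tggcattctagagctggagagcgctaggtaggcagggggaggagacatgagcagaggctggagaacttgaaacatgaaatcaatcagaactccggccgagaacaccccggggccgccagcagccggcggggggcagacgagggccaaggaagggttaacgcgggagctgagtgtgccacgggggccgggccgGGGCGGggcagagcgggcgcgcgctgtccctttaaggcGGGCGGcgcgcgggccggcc
Olfm4, GRCm38.p6 chr14:80000052-80000301, plus strand: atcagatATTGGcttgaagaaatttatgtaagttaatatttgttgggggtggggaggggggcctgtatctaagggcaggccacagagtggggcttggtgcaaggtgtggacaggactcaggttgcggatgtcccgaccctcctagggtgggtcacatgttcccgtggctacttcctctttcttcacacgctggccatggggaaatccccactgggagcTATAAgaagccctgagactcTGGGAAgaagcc
Ascl2 held 3 CCAAT boxes, which begin 99, 90 and 67 bases before the start, and 1 GC box. Axin2 held 2 GC boxes. Olfm4 held a TATA box 32 bases before the start, an RBPJ motif 12 bases before it and a CCAAT box. No 2 of these matches overlap. Promoters were given for 6 of the 10 genes, Ephb2, Ephb3 and Rnf43 among them, in 7 windows. The motif of the Wnt factors TCF and LEF (CTTTGAA or CTTTGAT, both strands) was in 0 of the 7 windows and in 7.5% of 32851 windows of the same length. A CCAAT box was in 33.8% of all windows, a GC box in 32.7%, a TATA box in 22.8% and an RBPJ motif in 21.6%. A match describes letters only, and so does the lack of one.

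Of the markers of the stem cell itself, Ascl2 had the largest difference. On its probe set of highest mean, 1460514_s_at, the log2 value was 7.09, 7.09, 7.07 and 7.31 in penicillin mice, against 6.74, 6.88 and 6.96 in control mice. Every penicillin mouse lay above every control mouse, and penicillin replicate 4 was the highest. The difference was 0.28 ± 0.082 (SE, 1.22-fold, 95% interval 0.09 to 0.47, limma adjusted p = 0.333). A second probe set, 1432018_at, had 6.05, 6.06, 6.06 and 6.33 in penicillin mice, against 5.71, 5.83 and 6.00 in control mice, again without overlap. It was designed on the same transcript record as the first, and both followed each other across the 7 arrays with a Pearson's r of 0.99, so they are not separate evidence. The third, 1422396_s_at, comes from another record and differed by 0.09 ± 0.103 (SE), with 4.49 to 4.86 in penicillin mice and 4.41 to 4.70 in control mice. With array quality weights Ascl2 was called (adjusted p = 0.0271) and so was Msi1 (adjusted p = 0.0393), in a fit that called 5.67% of all genes tested. Those weights ran from 0.249 for control replicate 3 to 4.53 for control replicate 1.

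Msi1 was the other gene whose groups did not overlap. Its log2 value was 5.65, 5.81, 5.76 and 5.68 in penicillin mice, against 5.48, 5.37 and 5.64 in control mice. Penicillin replicate 1, at 5.65, and control replicate 3, at 5.64, almost met. The difference was 0.23 ± 0.077 (SE, 1.17-fold, 95% interval 0.05 to 0.41, limma adjusted p = 0.397). The remaining probe sets, 1444306_at and 1452287_at, differed by 0.14 ± 0.066 and 0.13 ± 0.064 (SE), and in both the groups overlapped. They stood at log2 4.20 to 4.50 and 4.80 to 5.08. Genes with a mean at or under log2 4.588 were filtered out of the main fit. Over all 18 probe sets the groups did not overlap in 4, all higher in penicillin mice, where 3.77% of all probe sets used were higher and 3.96% lower without overlap. Of these 4, the 2 of Ascl2 share a transcript record.

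Lgr5, the defining receptor of these stem cells, had log2 values of 7.97, 7.92, 7.65 and 7.79 in penicillin mice, against 7.73, 7.71 and 7.76 in control mice. The penicillin mice lay on both sides of the control mice, which were close together. The SD was 0.146 (n = 4) in penicillin mice and 0.0261 (n = 3) in control mice. The difference was 0.09 ± 0.083 (SE, adjusted p = 0.662 in limma, 95% interval -0.10 to 0.29). A second probe set, 1444519_at, differed by 0.12 ± 0.108 (SE), but over the 7 arrays it ran against the first, with an r of -0.42. Its log2 values were low, 4.68 to 5.15, not far above the filter value of 4.588.

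Olfm4 had log2 values of 12.68, 12.61, 12.47 and 12.68 in penicillin mice, against 12.46, 12.45 and 12.75 in control mice. Control replicate 3 was the highest of all 7 arrays and control replicate 2 the lowest. The difference was 0.06 ± 0.091 (SE, adjusted p = 0.811 in limma). It was 0.153 without control replicate 3, 0.006 without control replicate 2 and 0.011 without control replicate 1.

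Smoc2 had log2 values of 9.24, 9.08, 8.80 and 8.98 in penicillin mice, against 9.16, 8.94 and 9.15 in control mice. The groups overlapped, with penicillin replicate 3 the lowest and penicillin replicate 1 the highest. The difference was -0.06 ± 0.110 (SE, adjusted p = 0.838 in limma), and without penicillin replicate 3 it was 0.016. A second probe set, 1431362_a_at, followed the first with an r of 0.85 and differed by -0.17 ± 0.099 (SE). Smoc2 is also made by fibroblasts. The mean deviation of 12 fibroblast genes was -0.35 in penicillin replicate 3 and between 0.006 and 0.205 in the other penicillin mice, and between -0.13 and 0.27 in control mice. Its part in the level of Smoc2 was not tested.

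Of the feedback inhibitors of Wnt signalling, Axin2 had the largest fall of the 9 genes, -0.18, and Rnf43 differed by 0.02. Neither was called. With array quality weights Axin2 differed by -0.29 (limma adjusted p = 0.0577), in a fit that called 5.67% of all genes tested. Control replicate 1, the highest array for Axin2, had the largest weight there, 4.53. Without control replicate 1 Axin2 differed by -0.105. Axin2, often used as a readout of beta-catenin activity, had log2 values of 8.95, 8.85, 8.68 and 9.02 in penicillin mice, against 9.20, 9.03 and 8.93 in control mice. The groups overlapped, with control replicate 1 the highest and penicillin replicate 3 the lowest. The difference was -0.18 ± 0.099 (SE, 1.13-fold lower, adjusted p = 0.530 in limma, 95% interval -0.41 to 0.05). A second probe set, 1421341_at, differed by -0.04 ± 0.096 (SE) and correlated with the first at an r of 0.21. Its log2 values were low, 4.38 to 4.77, near the filter value of 4.588. Rnf43 had log2 values of 6.92, 6.75, 6.81 and 6.92 in penicillin mice, against 6.85, 6.96 and 6.67 in control mice. Both ends of its range were control mice, and the difference was 0.02 ± 0.082 (SE, adjusted p = 0.917 in limma).

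Sox9 had log2 values of 7.51, 7.30, 7.43 and 7.48 in penicillin mice, against 7.53, 7.55 and 7.51 in control mice on its probe set of highest mean, 1451538_at. The difference was -0.10 ± 0.062 (SE, adjusted p = 0.561 in limma). The probe set 1424950_at, designed on the same transcript record, went the other way. It had 7.10, 7.10, 7.10 and 7.18 in penicillin mice, against 7.04, 7.07 and 7.04 in control mice, without overlap, and differed by 0.07 ± 0.049 (SE). The third, 1433889_at, differed by -0.03 ± 0.052 (SE), at log2 values of 3.75 to 3.89, under the filter value of 4.588. The other probe sets of Sox9 gave no common direction. Ephb3, the receptor that holds Paneth cells at the crypt base, had log2 values of 8.27, 8.21, 8.21 and 8.16 in penicillin mice, against 8.21, 8.21 and 8.27 in control mice. It had the smallest difference, -0.02 ± 0.050 (SE, adjusted p = 0.908 in limma, 95% interval -0.13 to 0.10). On 4 of the 7 arrays Ephb3 had exactly the same deposited value, as compared to 9 decimals. Equal values on at least 2 arrays, a looser measure, occur in 56.5% of the probe sets used. No other probe set of the listed genes had 4 equal arrays. Sox9 1424950_at and 1433889_at and Msi1 1452287_at and 1444306_at each had 3. The part of these equal values in the small spread of Ephb3 was not tested.

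**Figure D2:**
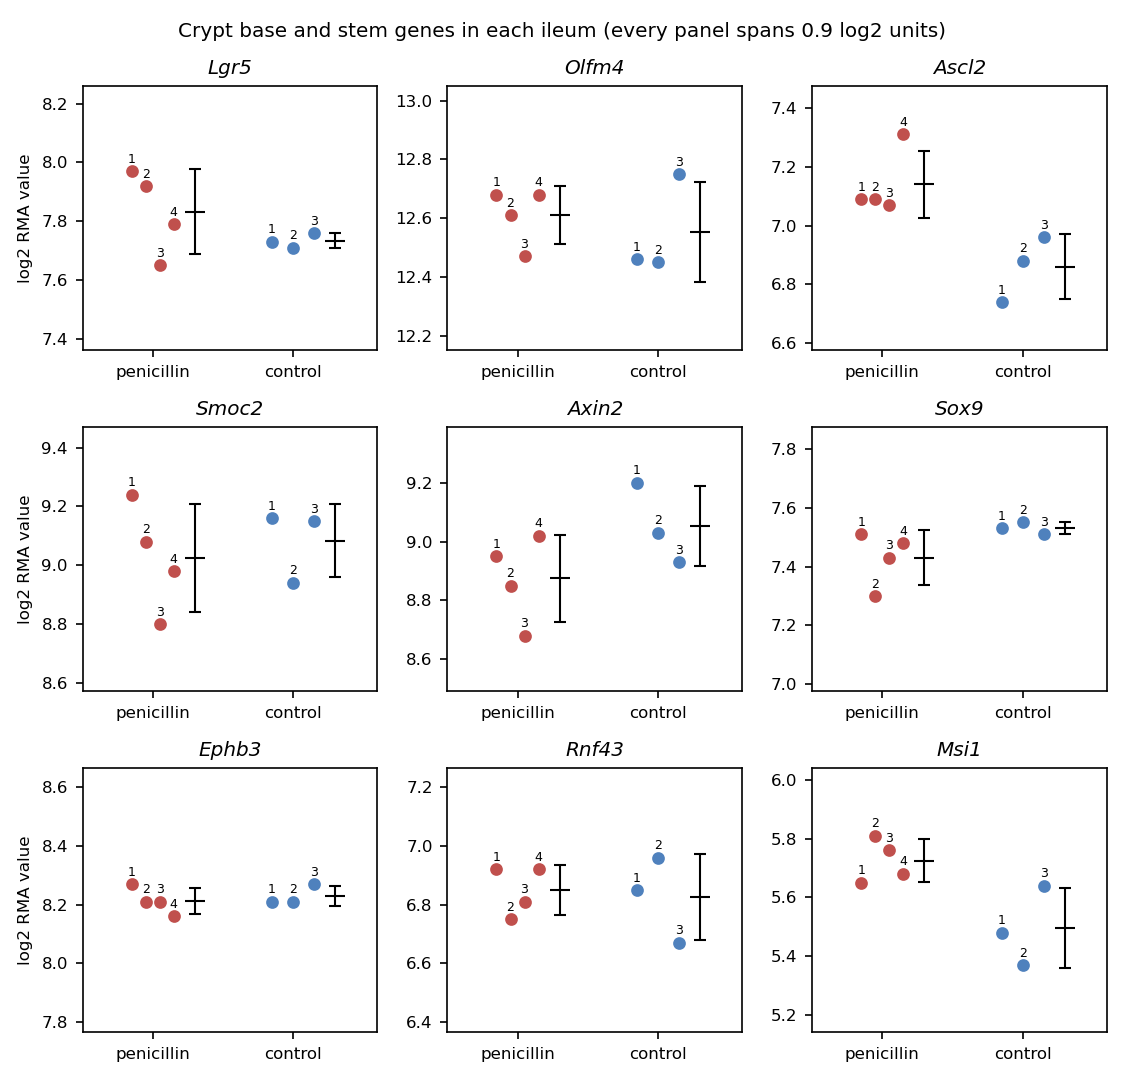
Log2 RMA value of each of the 9 genes on each array, penicillin mice (red) left of control mice (blue), numbered by replicate, with mean and SD beside them. All panels span the same number of log2 units. Ascl2 and Msi1 have no overlap between the groups, and penicillin replicate 3 is the lowest array for Lgr5, Smoc2 and Axin2.

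The array of control replicate 3 differed from the rest. Its score on principal component 1 (48% of the variance) was -30, where the penicillin arrays and the other control arrays scored -2.9 to 17.6. Car1, a carbonic anhydrase of colonocytes, stood there at log2 14.10, against 5.11 to 10.82 in penicillin mice and 7.30 and 7.38 in the other control mice. Aqp8, a water channel of the colon, stood there at 8.27, against 3.94 to 4.23 in penicillin mice and 3.86 and 4.29 in the other control mice. Over 6 colon genes the score was between -0.87 and 0.21 in penicillin mice, 1.93 in control replicate 3 and -0.248 and -0.138 in the other control mice. Slc37a2 and Sycn were also highest of all arrays in control replicate 3, at 6.42 and 7.11. The list did not move as 1 there, since Cd177 and Mettl7b were lowest among the control mice in control replicate 3, at 6.71 and 10.19. Cd177 was called lower in penicillin mice (difference -1.45 ± 0.147, SE, limma adjusted p = 0.0232). That call was lost without control replicate 3 (-1.52, limma adjusted p = 0.0555), without control replicate 1 or 2 (0.166 and 0.116), without penicillin replicate 1 or 4 (0.125 and 0.112) and with the replicate block (0.139).

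Averaged over the 9 crypt base and stem genes, control replicate 3 lay inside the range of the other arrays, while by gene it was the highest array for Olfm4 and Ephb3 and the lowest for Rnf43. The mean deviation of the 9 genes was between -0.08 and 0.08 in penicillin mice and between -0.05 and 0.01 in control mice, and control replicate 3 lay at 0.009. The same score for 24 cell cycle and replication genes was between -0.20 and 0.02 in penicillin mice and between -0.07 and 0.35 in control mice, and the 0.35 was control replicate 3. For 18 enterocyte genes it was between -0.07 and 0.47 in penicillin mice and between -0.81 and 0.06 in control mice, and the -0.81 was control replicate 3. Leaving out that array gave a median of 0.004 over the 9 genes, with Ascl2 at 0.33 and Msi1 at 0.30, neither called (limma adjusted p = 0.248 and 0.206). Scores of other cell type lists are given as descriptions, with no test. The score of 8 Paneth cell genes was between -0.24 and -0.07 in penicillin mice and between 0.13 and 0.28 in control mice, with Mptx1, Pla2g2a and Mmp7 at differences of -1.09, -0.62 and -0.47 and the other 5 genes between -0.15 and -0.02. That of 10 T cell and plasma cell genes was between -0.66 and -0.19 in penicillin mice and between 0.41 and 0.75 in control mice. All 10 had lower means in penicillin mice. Gzma, Gzmb, Ccl5 and Cd3g differed most, by -2.29, -1.65, -1.34 and -1.29. The groups overlapped for Cd8a and Cd3e, which differed by -0.13 and -0.21. Of the 10 genes 2 were called lower in penicillin mice by limma, where 0.088% of all genes tested were called lower. They were Itgae, an integrin of T cells in the epithelium, by -0.65 ± 0.063 (SE, limma adjusted p = 0.0232), and Ccl5, a chemokine, by -1.34 ± 0.150 (SE, limma adjusted p = 0.0407). Each call was lost in 7 of 17 alternatives. Itgae lost it without any 1 penicillin array (limma adjusted p = 0.0561 to 0.125), without control replicate 1 or 2 (0.156 and 0.116) and with the replicate block (0.473). Ccl5 lost it without penicillin replicate 1, 3 or 4 (limma adjusted p = 0.128 to 0.161), without any 1 control array (0.0548 to 0.210) and with the replicate block (0.139). The differences themselves stayed between -0.72 and -0.61 for Itgae and between -1.46 and -1.22 for Ccl5. The score of 8 goblet cell genes was between -0.26 and -0.06 in penicillin mice and between 0.10 and 0.39 in control mice, but 1 gene, Retnlb, a secreted goblet cell protein, differed by -2.66 ± 0.688 (SE, limma adjusted p = 0.290) and the other 7 by -0.17 to 0.07. For 12 tuft and enteroendocrine genes it was between 0.01 and 0.05 in penicillin mice and between -0.06 and -0.02 in control mice. For 10 smooth muscle genes it was between -0.36 and 0.13 in penicillin mice and between 0.00 and 0.24 in control mice, and for 9 genes of enteric neurons and glia it was between -0.20 and 0.01 in penicillin mice and between -0.10 and 0.33 in control mice. The part of these cells in the values of Ascl2 and Msi1 was not tested.

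**Figure D3:**
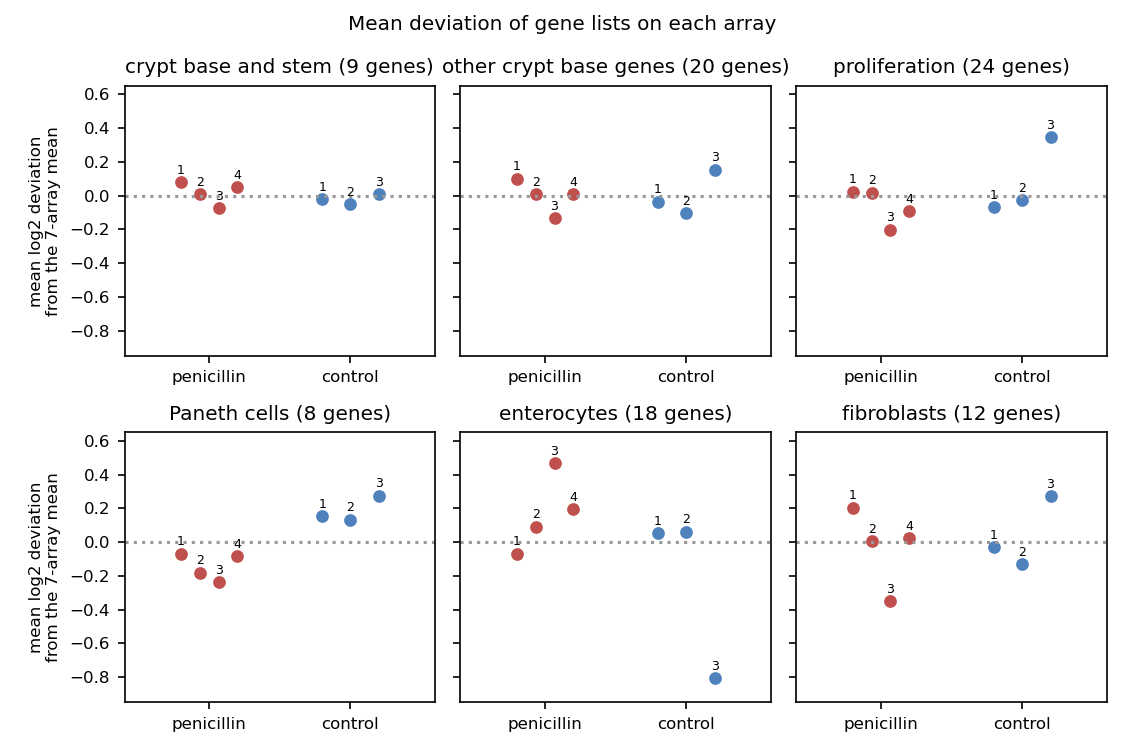
Mean log2 deviation of the genes of a list from their 7-array mean, for each array, penicillin mice (red) left of control mice (blue), numbered by replicate. The crypt base and stem genes stay between -0.08 and 0.08, control replicate 3 is highest for proliferation at 0.35 and lowest for enterocytes at -0.81, and the groups separate for Paneth cells.

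Among themselves the 9 genes did not share 1 pattern. Over the 7 arrays the 36 pairs had a median Pearson's r of 0.08, from -0.82 for Sox9 with Msi1 to 0.70 for Lgr5 with Smoc2, and 20 pairs lay above 0. These values describe 7 arrays of 2 groups. The spread within groups was near that of other genes, with a median residual SD of 0.113 beside 0.107 over all genes tested, from 0.039 for Ephb3 to 0.164 for Smoc2. The genes tested whose values ran most like those of Lgr5 over the 7 arrays were 2610044O15Rik8, at an r of 0.978, Wnt5a, at 0.967, and Cacna1g, at 0.946. These, and those for Olfm4 below, were picked as the highest among 13644 genes tested. Likeness was taken to the Lgr5 probe set of highest mean only. The log2 values of 2610044O15Rik8 were low, 4.63 to 5.08, not far above the filter value of 4.588. With 7 arrays and so many genes, high values also arise by chance, and no link to Lgr5 or Olfm4 was tested. Wnt5a, a Wnt ligand made by the stroma under the epithelium, had log2 values of 7.55, 7.49, 6.93 and 7.27 in penicillin mice, against 7.22, 7.0 and 7.23 in control mice, and ranked the arrays in the same order as Lgr5. Its difference was 0.16 ± 0.150 (SE, adjusted p = 0.676 in limma). Those most like Olfm4 were Rab36, at 0.986, Foxa1, at 0.979, and Tubb4b, at 0.975. Foxa1, a transcription factor of gut epithelium, had log2 values of 10.41, 10.35, 10.30 and 10.44 in penicillin mice, against 10.26, 10.27 and 10.46 in control mice, and like Olfm4 was highest in control replicate 3.

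Further genes known from the same stem cells gave no calls either, where 0.0953% of all genes tested were called. At that share a list of this size, here or below, would rarely hold a call. Of 22 listed, 20 were tested, 10 were higher and 10 lower, and the median difference was -0.001. Dach1, a transcription factor, and Prom1, a membrane protein of crypt cells, had the largest moderated t, at 0.17 ± 0.084 and -0.31 ± 0.183 (SE). Without control replicate 3, where Prom1 was highest at 11.89, Prom1 differed by -0.10, and 16 of the 20 genes were higher. Of 5 tested genes listed as reserve stem cell markers, among them Lrig1, which is also counted in the 20 above, 2 were higher and 3 lower, with 0 called. Clu, known from regenerating epithelium, and Mex3a, an RNA-binding protein, had the largest moderated t of the 5, at -0.33 ± 0.115 and 0.14 ± 0.075 (SE). Neither passed in the main fit (limma adjusted p = 0.410 and 0.527). With array quality weights, in a fit that called 5.67% of all genes tested, Clu was called (limma adjusted p = 0.0399).

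In the Wnt pathway 0 of 24 ligands, receptors and relay proteins were called, 14 being higher and 10 lower, with a median of 0.038. Ryk, a receptor for Wnt ligands, and Apc, the scaffold of beta-catenin destruction, had the largest moderated t. Ryk had log2 values of 9.86, 9.85, 9.74 and 9.74 in penicillin mice, against 9.67, 9.69 and 9.58 in control mice, a difference of 0.15 ± 0.059 (SE, adjusted p = 0.442 in limma). Apc differed by 0.14 ± 0.058 (SE, adjusted p = 0.453 in limma), but by 0.027 with the mean of its probe sets and 0.06 with array quality weights. Of 19 other Wnt target genes tested, 15 were lower and 4 higher, with a median of -0.095 and 0 called. Without control replicate 3 the median was -0.030, with 11 lower and 8 higher. This list, the 24 genes before it and the further stem cell genes above share some members, so their counts are not from separate genes. Ccnd1, the cyclin that drives cells into the cycle, had log2 values of 10.02, 9.98, 9.71 and 9.81 in penicillin mice, against 10.43, 10.45 and 10.37 in control mice. All penicillin mice lay below all control mice, and the difference was -0.54 ± 0.085 (SE, adjusted p = 0.0956 in limma), or -0.56 without control replicate 3. Tiam1, an activator of the GTPase Rac, had log2 values of 6.73, 6.81, 6.56 and 6.78 in penicillin mice, against 7.08, 7.05 and 7.16 in control mice, a difference of -0.38 ± 0.072 (SE, adjusted p = 0.150 in limma), or -0.111 with the mean of its probe sets. Neither passed the threshold in the main fit. With array quality weights, in a fit that called 5.67% of all genes tested, Ccnd1 was called (limma adjusted p = 0.0169). Tiam1 was called in 1 of 17 alternatives (limma adjusted p = 0.0233).

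Of the Notch pathway 18 genes were tested, 6 higher and 12 lower, with a median of -0.019 and 0 called. Hey1, a Notch target, and Numb, a Notch inhibitor, had the largest moderated t, at -0.14 ± 0.076 and 0.22 ± 0.125 (SE), and Numb differed by 0.07 without control replicate 3. Of the other Eph receptors and ephrins 13 were tested, 8 higher and 5 lower, with a median of 0.084 and 0 called. Efna3, an ephrin, and Epha1, an Eph receptor, differed by 0.14 ± 0.062 and 0.24 ± 0.154 (SE), and Epha1 by 0.05 without control replicate 3. The BMP pathway, which opposes stem cell growth above the crypt, had 8 genes higher and 7 lower, with a median of 0.014 and 0 called. Smad1, which carries the BMP signal, and Bmp2, a ligand, differed by -0.24 ± 0.089 and 0.35 ± 0.161 (SE). Bmp2 differed by 0.21 without control replicate 3 and 0.099 with array quality weights. Smad1 was called in 1 of 17 alternatives (limma adjusted p = 0.0205).

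Proliferation genes mostly had lower means in penicillin mice, and so did the genes of Paneth cells, the neighbours of the stem cells. None was called in the main fit. Of 24 proliferation genes 23 had lower means, with a median of -0.16, and without control replicate 3 there were 14 lower and 10 higher, with a median of -0.014. Mcm7, part of the replicative helicase, and Top2a, a topoisomerase of dividing cells, differed by -0.20 ± 0.095 and -0.28 ± 0.140 (SE), or by -0.10 and -0.15 without control replicate 3. All 8 tested Paneth cell genes had lower means, with a median of -0.139, or -0.101 without control replicate 3. Mptx1, a pentraxin of Paneth cells, had log2 values of 11.12, 10.79, 10.42 and 10.71 in penicillin mice, against 11.71, 11.90 and 11.93 in control mice. All penicillin mice lay below all control mice, and the difference was -1.09 ± 0.152 (SE, adjusted p = 0.0719 in limma). Pla2g2a, a secreted phospholipase, differed by -0.62 ± 0.104 (SE, adjusted p = 0.108 in limma), and all penicillin mice again lay below all control mice. With array quality weights, in a fit that called 5.67% of all genes tested, Mptx1 and Pla2g2a were called (limma adjusted p = 0.0149 and 0.021).

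**Figure D4:**
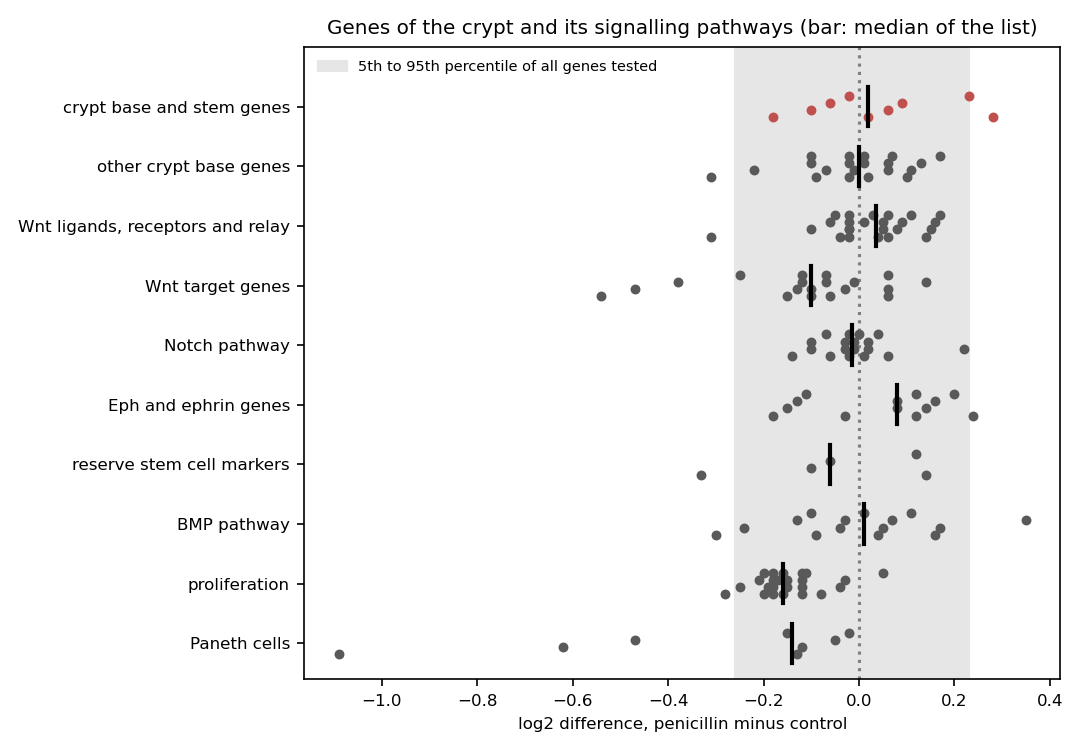
Log2 difference, penicillin minus control, of each tested gene in 10 lists (points), with the median of each list (bar) and the 5th to 95th percentile of all genes tested (grey, -0.26 to 0.23). Of the 9 crypt base and stem genes 7 lie inside the grey band, and Ascl2 and Msi1 lie at its upper edge or beyond. Below it lie 3 Paneth cell genes and 3 Wnt target genes, with Mmp7 in both lists. Single genes of other lists also lie below it (Clu, Prom1, Rspo3, Grem1 and Top2a) or above it (Bmp2 and Epha1).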

How the data were processed

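RNA from the ileum of 7 mice was hybridised, biotin-labelled, to 1 Affymetrix array each, per the labels' protocols. The authors deposited log2 values, 1 per probe set, and the submitters' processing notes name RMA and affy. No version or build is given in those sources. Values ran from 2.5 to 14.7, array medians from 5.43 to 5.45, and correlations between arrays over probe sets from 0.992 to 0.998. RMA gives no detection call, and the number of arrays limits the precision.

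Of 45101 probe sets, 34945 named 1 gene and were no controls, in a platform annotation of 2016, and 34741 of them matched a RefSeq gene ID. Each of 18193 genes was represented by its probe set of highest mean, and genes at or under the 25th percentile of the means (log2 4.588) were left out. That left 13644 genes, among them all 9 listed genes with a probe set. The group difference was fitted with limma 3.58.1 under R 4.3.3 (lmFit and eBayes, two-sided, Benjamini-Hochberg over all genes tested), which was tested on simulated data. Other probe sets come from the same fit over all 34945. The labels call the arrays biological replicates. The listed genes and the related lists were chosen with earlier results of these data known. Named genes are the listed genes, the 2 genes of largest moderated t in each related list described and those past the threshold there, the 3 most correlated with Lgr5 and with Olfm4, and Fabp6, Car1 and Aqp8. Of the other cell type lists the scores, the genes called and single genes that carry a score or depart from it are given. Retnlb, Mmp7, Mettl7b, Slc37a2, Sycn, Gzma, Gzmb, Cd3g, Cd8a and Cd3e were named after their values were seen. Alternatives were renormalisation, centring, filters, averaged or single probe sets, an intensity trend, array weights, a replicate block, each array left out, and a threshold of 0.1. Plotting used Python 3.11.15 and matplotlib 3.10.9.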

Additional observations from a re-analysis of the deposited data

Results flagged for a closer look

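In 5 of the 18 probe sets 1 penicillin mouse lay far from the other 3, by the share of the group's range that its gap to the nearest mouse took up, above Dixon's 95% critical value. The measure was taken in 54 groups of penicillin values. Chance flags about 1 in 20 groups where no values are equal, so that rate does not apply to the shares of 1.0 below. Penicillin replicate 4 was the high mouse for Ascl2, with shares of 0.933 on 1460514_s_at and 0.948 on 1432018_at, and without it Ascl2 differed by 0.226 on 1460514_s_at. It was also the high mouse for Sox9 on 1424950_at, with a share of 1.0. Penicillin replicate 3 was the low mouse for Sox9 on 1433889_at, and penicillin replicate 2 the high mouse for Msi1 on 1444306_at, both with a share of 1.0. A share of 1.0 arises because the other 3 mice have exactly the same deposited value.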

How the results depend on the processing

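In all alternatives run but 1, 0 of the crypt base and stem genes were called. The exception was array quality weights, which called 2 of them, Ascl2 and Msi1, and over all genes tested 488 lower and 286 higher. Over all genes the fit reported called 12 lower and 1 higher. With the mean of probe sets there were 7 lower and 0 higher, with the replicate block 0 and 0 (803 at an unadjusted p under 0.05 in limma), and at an adjusted p under 0.1 there were 37 lower and 3 higher. Without 1 array the counts ran from 0 to 14 lower and from 0 to 1 higher. The cause of these moves was not tested. The deviations of arrays of the same replicate number correlated at -0.164, 0.003 and -0.416. Of 3 penicillin arrays 0 were closest to the control array of their number. No pairing by number was visible, but 3 candidate pairs are too few to exclude one. The median of the 9 genes ran from -0.016, with the filter at the 50th percentile and 7 genes left, to 0.057, without penicillin replicate 2. Ascl2 ran from 0.22 to 0.38 and Msi1 from 0.17 to 0.30, higher in every alternative in which they were tested, and Axin2 from -0.29 to -0.105. Without 1 array Lgr5 ran from 0.047 (penicillin replicate 1) to 0.156 (penicillin replicate 3) and Sox9 from -0.129 (penicillin replicate 1) to -0.058 (penicillin replicate 2). Ephb3 was 0.016 with quantile normalisation and 0.000 with array quality weights, and -0.035 to 0.004 without 1 array. Rnf43 was -0.017 with array quality weights, and -0.053 to 0.090 without 1 array. Smoc2 ran from -0.133 to 0.016 without 1 array. A difference as small as those of Ephb3 and Rnf43 has no settled direction with 7 arrays.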
